A study of Mus musculus with 6 samples.

Results

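The 10 genes described here, Vim, Cdh1, Cdh2, Twist1, Snai2, Zeb2, Fn1, Axl, Ngfr, and Sox9, are widely read as signs that a melanoma cell has left the melanocyte state for a mesenchymal or neural crest state. They were chosen by symbol from the 25215 genes of the TPM table, and all 10 were found there. Single cells came from tumors of C57BL/6 mice injected on both flanks with 50000 cells of the mouse melanoma line B16 (B16-F10 in the labels) or of R499, a line grown from a B16 tumor that had relapsed after radiation and anti-CTLA4. The 3 conditions were B16 without treatment (B16), B16 in mice dosed with 200 μg of anti-PD1 first on day 5, then on day 8 and day 11 (B16PD1), and R499 without treatment (R499), with 2 tumors each, named here as in the columns of the table. Tumors were taken on day 15, CD45-negative cells were sorted, and Smart-seq libraries of full-length transcripts were made. R499 stands for resistance as 1 line only, and whether both flanks of a mouse were pooled is not given in the sources used here.

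In the transition from epithelial to mesenchymal cells, transcription factors of the SNAI, ZEB, and TWIST families repress E-cadherin, and N-cadherin, vimentin, and fibronectin come up. Melanocytes come from the neural crest, and in this lineage the factors have split roles: SNAI2 and ZEB2 belong to the melanocyte program, whereas ZEB1 and TWIST1 are read as signs of its loss. AXL and NGFR mark melanoma cells in states with low pigment gene expression, AXL the undifferentiated state and NGFR the neural crest-like state.

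Promoter sequences were given for 5 of the 10 genes (Vim, Zeb2, Axl, Ngfr, and Twist1) by RefSeq on GRCm38.p6, each from 250 bases before to 50 after a transcription start. Those of Vim, which was found in nearly every cell, of Zeb2, whose R499 tumors lay below the other 4, and of Twist1 and Ngfr, which were listed at 0 in every cell, are shown 5′ to 3′ on the strand of the gene, with every CANNTG (the E-box, read by SNAI, ZEB, and TWIST factors) and every TATAAA of either strand in capitals. For Zeb2 the first of 4 listed starts is shown.
Vim, chr2:13574061-13574360, strand +: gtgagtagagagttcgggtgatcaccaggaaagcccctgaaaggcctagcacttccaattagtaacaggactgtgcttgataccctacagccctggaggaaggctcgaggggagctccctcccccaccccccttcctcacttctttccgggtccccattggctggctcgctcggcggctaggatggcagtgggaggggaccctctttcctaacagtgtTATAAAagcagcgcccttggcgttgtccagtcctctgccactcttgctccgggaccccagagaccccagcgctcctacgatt
Zeb2, chr2:45117393-45117692, strand -: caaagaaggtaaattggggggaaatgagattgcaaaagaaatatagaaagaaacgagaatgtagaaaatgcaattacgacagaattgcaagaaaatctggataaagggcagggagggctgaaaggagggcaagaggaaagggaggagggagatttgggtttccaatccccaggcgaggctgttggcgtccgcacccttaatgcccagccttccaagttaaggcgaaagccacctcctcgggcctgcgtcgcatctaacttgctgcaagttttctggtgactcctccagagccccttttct
Twist1, chr12:33957421-33957720, strand +: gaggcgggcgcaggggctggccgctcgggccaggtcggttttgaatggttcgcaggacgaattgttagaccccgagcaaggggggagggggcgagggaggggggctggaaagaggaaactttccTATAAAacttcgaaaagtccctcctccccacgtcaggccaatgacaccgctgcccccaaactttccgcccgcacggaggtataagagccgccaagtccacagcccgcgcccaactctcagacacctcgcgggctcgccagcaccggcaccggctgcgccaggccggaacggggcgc
Ngfr, chr11:95587649-95587948, strand -: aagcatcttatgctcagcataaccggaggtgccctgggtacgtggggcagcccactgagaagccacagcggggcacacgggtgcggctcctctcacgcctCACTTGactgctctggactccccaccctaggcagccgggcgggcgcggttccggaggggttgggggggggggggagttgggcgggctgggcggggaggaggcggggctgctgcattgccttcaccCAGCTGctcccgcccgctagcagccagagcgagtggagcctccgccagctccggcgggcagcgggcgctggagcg

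CANNTG, which is the same on both strands, was present at least once in 72.3% of 32851 promoters of this length, but of these 4 sequences only that of Ngfr held it, at positions -150 and -25 from the start. The forms CACCTG and CAGGTG, which are included in CANNTG and read by ZEB and SNAI factors, were in 20.2% of all promoters and in none of the 8 listed for the 5 genes. TATAAA was found at -32 in Vim and at -126 in Twist1, and 13.6% of all promoters held it on 1 strand or the other. The number of CG pairs was 11 in Vim, 9 in Zeb2, 27 in Twist1, and 23 in Ngfr, against a median of 7. These are matches of letters, and nothing about a factor follows from them.

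After removal of cells with 1000 genes or fewer or with 10% or more of TPM from mitochondrial genes, 507 of 602 cells were retained, from 75 (R499016) to 91 (B16007) per tumor. The table gives TPM and no read counts, so depth in reads is unknown. The number of genes with TPM above 0 stands in for it, and its median per tumor was between 3141 (R499015) and 3838.5 (B16PD1002). Of the 18 melanocyte genes listed, 17 were detected, and Tyrp1, Dct, and Pmel were found in all 507 cells, so the retained cells fitted their label. Any of 31 markers of fibroblasts and pericytes, immune, endothelial, or keratinocyte cells was found in 86 cells (17%). The share per tumor ran from 13.2% in B16007 to 26.7% in B16PD1000. The most frequent of these markers were Fcer1g in 28 cells, Lyz2 in 14, and Postn in 11. Col1a1, Pdgfra, and the 5 keratinocyte markers were listed at 0 in every cell, and Ptprc was found in 1 cell. Such a marker was found in 19.7% of cells with Zeb2 and 12.5% of cells without it. The shares were 25.5% and 16.1% for Axl, 17.7% and 16.7% for Fn1, and 21.3% and 15.3% for Cdh2. For Snai2 they were 21.6% and 16%, and for Sox9 25.6% and 16.2%. These shares were not adjusted for the number of genes detected in a cell, on which finding a gene depended. The part of cells with such a marker in the results was tested by leaving them out.

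The 10 genes covered the whole range of expression, from a gene in nearly every cell to genes in none. TPM is scaled for transcript length, so levels of different genes can be compared. Vim was found in 504 of 507 cells (99.4%), Zeb2 in 315 (62.1%), Cdh2 and Fn1 each in 141 (27.8%), Snai2 in 88 (17.4%), Axl in 47 (9.27%), Sox9 in 39 (7.69%), and Cdh1 in 7 (1.38%). Twist1 and Ngfr were listed at 0 in the retained cells and in the 95 cells left out, and 0 of 507, taken as 3 counts, allows a share of up to 0.592% of cells with TPM above 0 (0.752% by the Wilson interval), which does not limit the cells that express a gene. Of the 25215 genes, 10683 were listed at 0 in every cell. The mean TPM was 779 for Vim, 46.0 for Zeb2, 13.0 for Fn1, 7.86 for Snai2, 6.54 for Axl, 6.12 for Cdh2, 0.873 for Sox9, and 0.285 for Cdh1. Snai2, Axl, and Cdh2 were thus close in mean level, but Cdh2 was spread over 141 cells and Axl over 47. The limit from a count of 0 and the intervals given below cover counting error only.

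How often a gene was found depended on how many genes a cell showed. In the 255 cells at or below the median of their tumor in genes detected, against the 252 above it, Zeb2 was found in 48.6% and 75.8%, Fn1 in 18.4% and 37.3%, Cdh2 in 15.3% and 40.5%, Snai2 in 8.63% and 26.2%, Axl in 5.10% and 13.5%, and Sox9 in 3.53% and 11.9%. Only Vim was nearly at its ceiling in both sets of cells, at 98.8% and 100%. Beside Vim, 95 cells (18.7%) held none of the other 9 genes, 180 held 1, 134 held 2, 68 held 3, 24 held 4, and 6 held 5. The median number of genes detected rose along this series from 2451 to 5154.5. Comparisons between cells below were therefore made after regression on the number of genes detected.

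**Figure D1:**
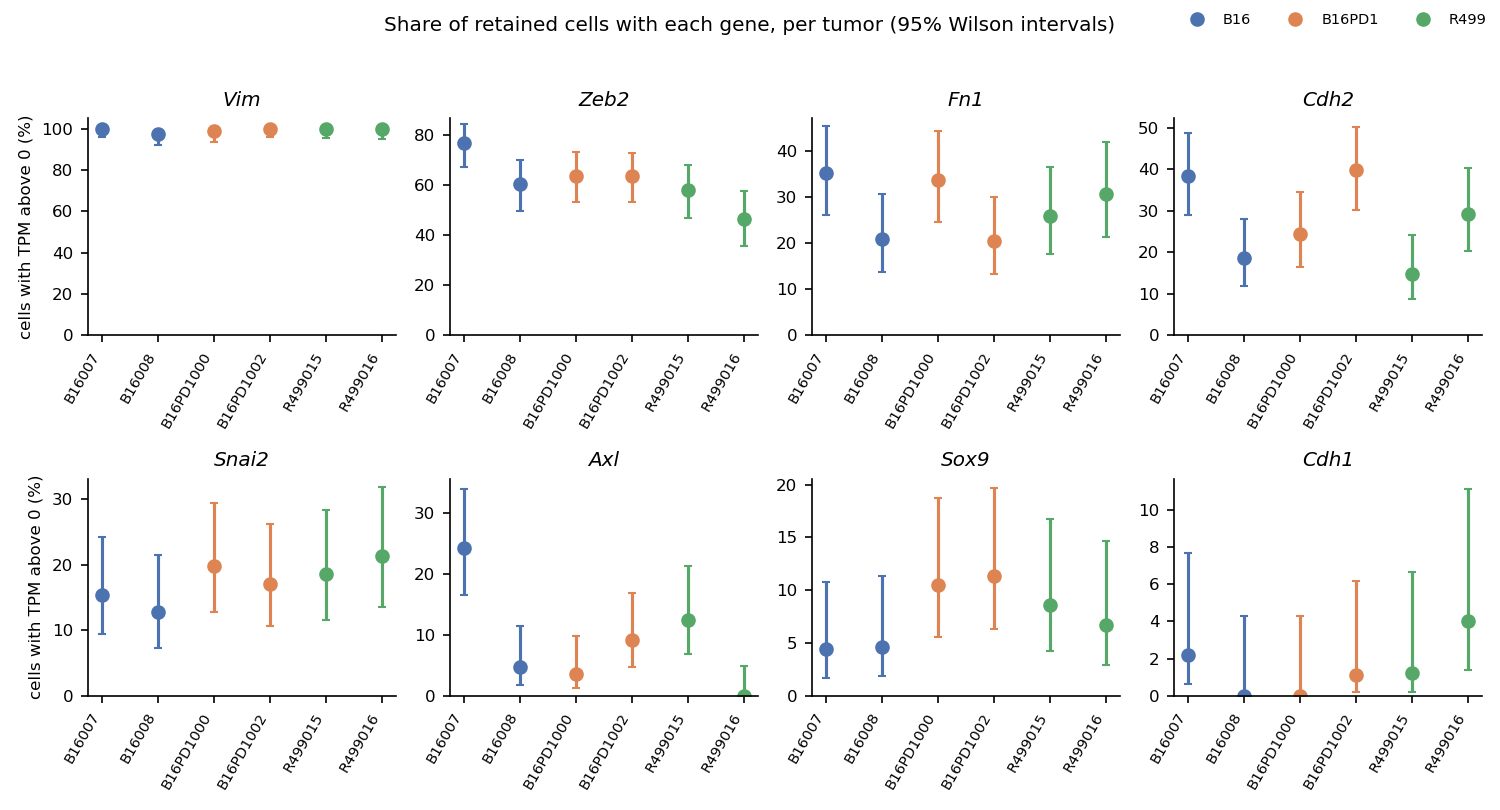
Share of retained cells with TPM above 0 (y axis, %) in each of the 6 tumors (x axis) for the 8 detected genes, colored by condition, with 95% Wilson intervals; each panel has its own scale. Vim was at or above 97.7% in every tumor, Zeb2 was lowest in R499016 at 46.7%, and Axl ranged from 0% in R499016 to 24.2% in B16007.

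RNA of Vim, which encodes vimentin, the intermediate filament protein of mesenchymal cells, was abundant in every tumor, and protein was not measured. The mean of log2(TPM + 1) of Vim over the cells of a tumor was 9.31 in B16007, 8.87 in B16008, 8.85 in B16PD1000, 9.08 in B16PD1002, 9.30 in R499015, and 9.07 in R499016. The 3 conditions overlapped, and within a condition the tumors differed by as much as the conditions did. Only 3 cells, 2 of B16008 and 1 of B16PD1000, were listed at 0. Where detected, Vim had a median of 569 TPM with quartiles of 342 and 1017.

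RNA of the cadherins that are exchanged in an epithelial to mesenchymal transition was low for both, with that of N-cadherin (Cdh2) far more frequent. Cdh1, which encodes the E-cadherin that ties melanocytes to keratinocytes, was found in 2 cells of B16007, 1 of B16PD1002, 1 of R499015, 3 of R499016, and none of B16008 and B16PD1000. Cdh2 was found in 38.5% of cells of B16007 and 18.6% of B16008, in 24.4% of B16PD1000 and 39.8% of B16PD1002, and in 14.8% of R499015 and 29.3% of R499016. The intervals of the 2 B16 tumors did not overlap (29.1% to 48.7% and 11.8% to 28.1%), so tumors of the same condition differed by more than counting error. Cdh1 and Cdh2 were found together in 4 of the 7 cells with Cdh1. Of the 8 other cadherins and catenins listed, 6 were detected. Ctnnb1, which encodes β-catenin and links cadherins to the cytoskeleton, had a mean of 378 TPM, the neural crest cadherin Cdh19 had 26.9 TPM and was in 56.6% of cells, and the α-catenin gene Ctnna1 had 24.5 TPM, whereas Cdh3 and Cdh15 were listed at 0.

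Among the transcription factors, Zeb2 and Snai2 were found and Twist1 was not. Zeb2, a zinc finger repressor that melanocytes need, had mean log2(TPM + 1) of 4.09 in B16007, 3.27 in B16008, 3.44 in B16PD1000, 3.0 in B16PD1002, 2.74 in R499015, and 2.28 in R499016. Both R499 tumors lay below the other 4, and how many of all genes had such an order was not counted. Zeb2 was found in 76.9% and 60.5% of cells of the B16 tumors, 64.0% and 63.6% in B16PD1, and 58.0% and 46.7% in R499. The gene overlaps the antisense gene Zeb2os by 653 exonic bases, and Zeb2os was found in 33 retained cells. RSEM was run with default settings, which do not use strand, so reads within this overlap cannot be told apart by strand.

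Snai2, which encodes the zinc finger repressor SLUG, had mean log2(TPM + 1) of 0.79 and 0.66 in B16007 and B16008, 0.91 and 0.76 in B16PD1000 and B16PD1002, and 0.97 and 1.01 in R499015 and R499016. The R499 tumors were the highest of the 6, an order whose share over all genes was not counted. Their shares of cells with Snai2 (18.5% and 21.3%) lay within the intervals of the B16 tumors (9.39% to 24.2% and 7.29% to 21.5%). Of the 8 other factors of the epithelial to mesenchymal transition listed, Tcf4 was in 161 cells with a mean of 20.3 TPM, Tcf3 in 18 with 0.665 TPM, and Zeb1, the paralog of Zeb2, in 9 with 0.745 TPM. Snai1 and Snai3 were in 1 cell each, and Twist2, Prrx1, and Foxc2 were listed at 0, as was Twist1.

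Sox9, a neural crest factor that is read as a counterpart of Sox10 in melanoma, was rare and low. It was found in 4 of 91 and 4 of 86 cells of the B16 tumors, 9 of 86 and 10 of 88 in B16PD1, and 7 of 81 and 5 of 75 in R499. Mean log2(TPM + 1) was 0.18 in B16007, 0.12 in B16008, 0.36 in B16PD1000, 0.37 in B16PD1002, 0.24 in R499015, and 0.20 in R499016. Both B16PD1 tumors were above the other 4, although the intervals of the shares of cells overlapped among all 6 tumors. The share of all genes with such an order was not counted. Sox10 itself, the factor that specifies melanocytes, was found in 330 cells, against 39 for Sox9.

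Fn1, which encodes the matrix protein fibronectin, varied as much within conditions as between them. Its mean log2(TPM + 1) was 1.63 in B16007 and 1.0 in B16008, 1.55 in B16PD1000 and 0.93 in B16PD1002, and 1.17 in R499015 and 1.32 in R499016. It was found in 35.2%, 20.9%, 33.7%, 20.5%, 25.9%, and 30.7% of cells in that order, and all 6 intervals overlapped. In cells with Fn1 the median was 22.2 TPM and the highest value 578 TPM. Fn1 overlaps the antisense gene Apol7d by 292 exonic bases, and Apol7d was found in 4 cells.

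Of the 2 receptors, only Axl was found. Axl, the receptor tyrosine kinase of the ligand GAS6, was in 22 of 91 cells of B16007, 4 of 86 of B16008, 3 of 86 of B16PD1000, 8 of 88 of B16PD1002, 10 of 81 of R499015, and 0 of 75 of R499016. The share was thus 24.2% (interval 16.5% to 33.9%) in B16007 and 4.65% (1.82% to 11.4%) in B16008, a gap between tumors of the same condition beyond counting error. It was 12.3% (6.85% to 21.3%) in R499015, whereas the interval of R499016, with 0 cells, reached up to 4.87%. The single highest cell, of B16007, had 1133 TPM. The ligand gene Gas6 was in 1 cell while Pros1, which encodes protein S, a ligand of the related receptors, was in 110 cells (8.35 TPM), and the genes of these receptors, Tyro3 and Mertk, were in 10 and 18. Ngfr, the neurotrophin receptor of neural crest cells, was listed at 0. Sort1, which encodes the coreceptor sortilin, was in 284 cells with a mean of 11.5 TPM.

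**Figure D2:**
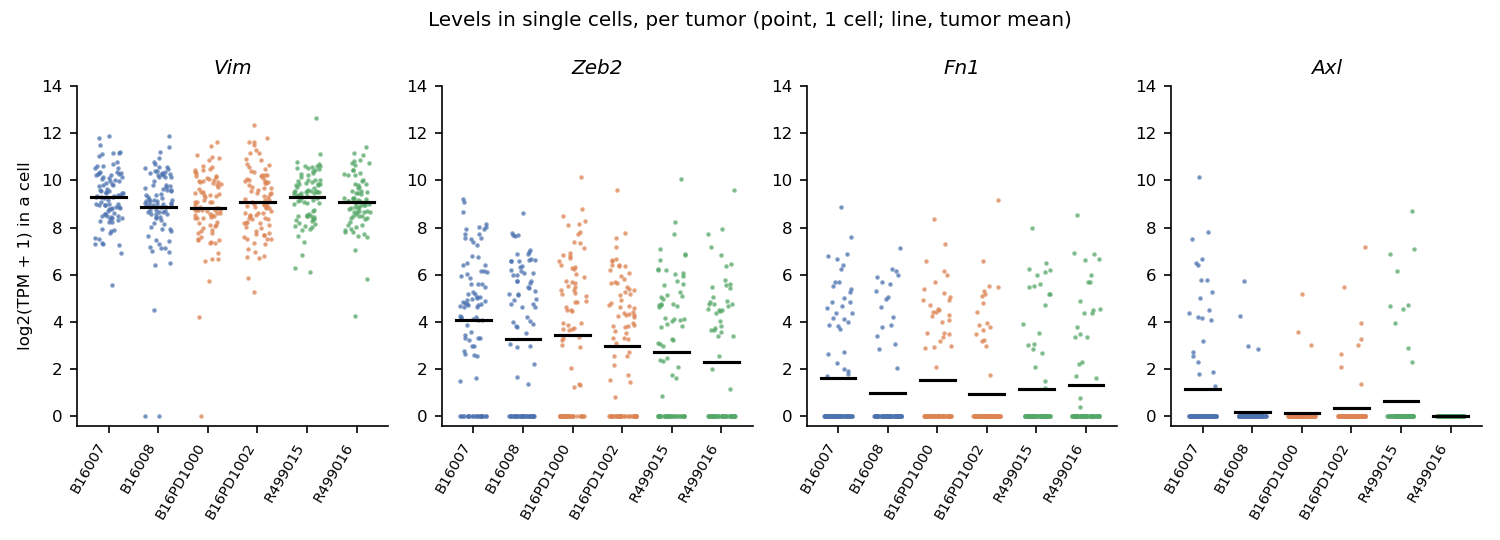
log2(TPM + 1) of Vim, Zeb2, Fn1, and Axl (y axis) in each of the 507 retained cells (points), by tumor (x axis), with the tumor mean as a line and color by condition. Apart from 3 cells at 0, Vim formed a single band with tumor means between 8.85 and 9.31, whereas Zeb2, Fn1, and Axl held cells at 0 beside cells with high values in every tumor but R499016, where Axl was 0 in all 75 cells.

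B16007 had the highest mean of the 6 tumors for Zeb2, Cdh2, Fn1, Axl, and Vim. Its mean over the 17 detected melanocyte genes was also the highest, at 7.04 against 6.60 to 6.86. How many of all genes were highest in B16007 was not counted. Its cells held 1.97 of the 9 genes other than Vim on average, against 1.22 to 1.63 in the other 5 tumors, and only 6.59% of its cells held none of them, against 18.6% to 26.7%. Its median of 3647 genes detected lay within the range of the others. The share of its cells with a marker of another cell type, 13.2%, was the lowest of the 6. However, 6 of the 8 immune markers were detected in B16007. Their summed mean TPM there was 205, against 6.14 to 229 in the other 5 tumors. Whether depth or other cell types had a part in the high means of B16007 was not tested.

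The conditions were compared to ask whether cells that had lived through anti-PD1, or the line that relapsed after therapy, had moved toward or away from these programs. With the tumor mean of log2(TPM + 1) as the value and limma fitted to all 11264 genes in more than 5 retained cells, 8 of the 10 genes could be tested. None of the 8 passed an adjusted p of 0.05 in the test over the 3 conditions, in B16PD1 minus B16, or in R499 minus B16, where 0.0888%, 0%, and 0.0621% of all genes did. At an unadjusted p under 0.05, 1 of the 8, Sox9, differed between B16PD1 and B16 and 1, Zeb2, between R499 and B16, where 4.69% and 10.5% of all genes did. With 2 tumors a condition, 100 genes were simulated with a change of 1 on the log2 scale in R499, and 45% were recovered. Of 100 with a change of 2, 88% were, so that changes of either size could be missed. The changed genes were drawn from all 11264 and changed together, so these shares need not hold for the 8 genes.

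Zeb2 was lower in R499 than in B16 in both tumors against both, without passing the adjusted test. On the scale of mean log2(TPM + 1) its difference was the largest of the 8 genes, while as log2 of the mean TPM plus 1 that of Axl was larger (-1.03 against -0.59). The condition means were 3.68 ± 0.58 for B16, 3.22 ± 0.31 for B16PD1, and 2.51 ± 0.32 for R499 (SD over 2 tumors each). The difference R499 minus B16 was -1.17 on the log2(TPM + 1) scale (SE 0.36, 95% interval -1.93 to -0.40, limma adjusted p = 0.324). Tumors of R499 and B16 did not overlap for Zeb2, Snai2, and Sox9, 3 of the 8 genes, as for 41.7% of all genes. The median difference of all genes was -0.073. Without B16007, the tumor with the highest Zeb2, the difference was -0.75, also with no call. Without the 86 cells that held a marker of another cell type the difference was -1.10. Macrophages also express Zeb2. Immune markers were found in 7.69% and 9.30% of cells of the B16 tumors, 10.5% and 14.8% of B16PD1, and 6.17% and 10.7% of R499, and 6 of their 8 genes had been detected in B16007, 3 in B16008, 3 in B16PD1000, and 5, 5, and 4 in B16PD1002, R499015, and R499016. Their summed mean TPM was 205 and 12.2 for the B16 tumors, 19 and 229 for B16PD1, and 6.16 and 6.14 for R499. These sums rest on few cells, with Tyrobp in 6 and Lyz2 in 14. Beyond leaving out cells with markers, a part of immune cells in the difference of Zeb2 was not tested.

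The difference of Zeb2 between B16PD1 and B16 was -0.46 (SE 0.36, interval -1.22 to 0.31, limma adjusted p = 0.989). Sox9 was higher in B16PD1, with condition means of 0.15 ± 0.04 (SD, n = 2 tumors) in B16 and 0.36 with an SD of 0.0050 in B16PD1. The difference was 0.21 (SE 0.09, interval 0.019 to 0.40, limma adjusted p = 0.989). Tumors of B16PD1 and B16 did not overlap for Sox9 alone of the 8 genes, against 33.3% of all genes. Fibroblast and pericyte markers were found in 18.6% of cells of B16PD1000 and 4.55% of B16PD1002, against 3.49% to 8.64% in the other 4 tumors. Their summed mean TPM was 5.10 in B16PD1000, 0.161 in B16PD1002, and 0.127 to 3.01 in the other 4. Without cells holding any marker of another type the difference of Sox9 was 0.16.

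The remaining genes had intervals that spanned 0 in both comparisons. For Vim, B16PD1 minus B16 was -0.12 (interval -0.68 to 0.43) and R499 minus B16 was 0.099 (-0.45 to 0.65). For Fn1 the differences were -0.079 (-0.71 to 0.55) and -0.073 (-0.70 to 0.55), and for Cdh2 -0.0060 (-0.64 to 0.63) and -0.29 (-0.92 to 0.34). Snai2 had 0.11 (-0.31 to 0.53) and 0.26 (-0.16 to 0.69), and Axl -0.43 (-0.93 to 0.069) and -0.34 (-0.84 to 0.16). Cdh1, found in 7 cells, had -0.0096 (-0.16 to 0.14) and 0.070 (-0.080 to 0.22). For Sox9, R499 minus B16 was 0.065 (-0.13 to 0.26). For Axl both differences rested on B16007, without which they were 0.050 and 0.14. Both comparisons share the 2 B16 tumors.

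**Figure D3:**
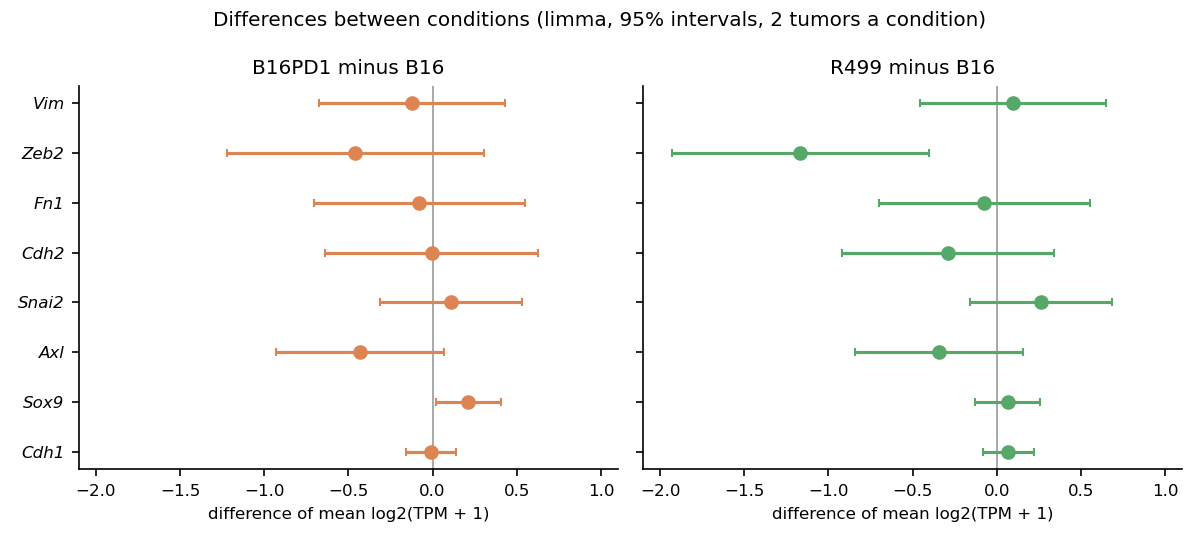
Difference of the tumor means of log2(TPM + 1) (x axis) for B16PD1 minus B16 (left) and R499 minus B16 (right) for the 8 genes tested (y axis), with 95% intervals from limma on 2 tumors a condition. The interval of Zeb2 in R499 minus B16 (-1.93 to -0.40) and that of Sox9 in B16PD1 minus B16 (0.019 to 0.40) lay off 0 before adjustment over all genes, and the others included 0.

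The other genes of these programs did not pass the adjusted test in either comparison: 0 of the 17 melanocyte genes tested, 0 of 3 other transcription factors, 0 of 6 cadherins and catenins, 0 of 1 epithelial gene, 0 of 12 mesenchymal and matrix genes, 0 of 6 genes of undifferentiated melanoma, 0 of 9 neural crest genes, and 0 of 10 TGF-β genes. Their median differences in R499 minus B16 were -0.10, -0.090, -0.21, -0.23, -0.031, -0.23, 0.067, and -0.11 in the same order, beside -0.073 over all genes. In B16PD1 minus B16 they were -0.21, -0.059, -0.047, -0.059, 0.022, -0.13, -0.011, and -0.0054, beside 0.012 over all genes. In R499 minus B16, 1 melanocyte gene was higher and 2 lower, 1 mesenchymal gene was higher, and 2 genes of undifferentiated melanoma and 1 of the TGF-β list were lower at an unadjusted p under 0.05, while 2.42% of all genes were higher and 8.12% lower. In B16PD1 minus B16, 0 melanocyte genes were higher and 2 lower, 1 mesenchymal gene was higher, and 1 gene each of undifferentiated melanoma, the neural crest, and the TGF-β list was lower, while 3.02% of all genes were higher and 1.67% lower. The 2 melanocyte genes, named after their values were seen, were Tyrp1 (-0.54) and Mitf (-0.73), both with a limma adjusted p of 0.989. Of the 17 differences, 13 were below 0, beside 5297 of 11264 over all genes. The 17 genes are not independent, and all genes were not matched to them in level.

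The matrix and adhesion genes that were found went far beyond Fn1. Of the 16 mesenchymal and matrix genes listed, Sparc, which encodes a collagen-binding glycoprotein, had a mean of 435 TPM and was in 91.1% of cells, Cd44, the hyaluronan receptor, had 189 TPM and was in 97.8%, and the β1 integrin gene Itgb1 had 62.4 TPM. The collagen cross-linking gene Lox and the tenascin gene Tnc were listed at 0. Of the epithelial genes, the tight junction gene Tjp1 had 7.54 TPM and Esrp1 and Grhl2, regulators of the epithelial state, had 0.184 and 0.135 TPM in 2 cells each, while Epcam, Krt8, Krt18, Cldn1, Cldn7, and Ocln were listed at 0.

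Of the genes of undifferentiated melanoma, the matricellular genes Cyr61 and Ctgf, targets of YAP and TEAD, led with 75 and 20.4 TPM, and Egfr, Nrg1, Nt5e, and Ankrd1 were listed at 0. Of the neural crest genes, S100b led with 101 TPM, followed by Sort1 and by Tfap2a with 11.0 TPM, and Sox2, Foxd3, Tfap2b, Gfra2, Gfra3, and Rxrg were listed at 0. The TGF-β pathway, a known inducer of the mesenchymal program, had all 10 of its listed genes detected, with Smad2 at 23.2 TPM, the type I receptor gene Tgfbr1 at 11.5 TPM, and Smad4 at 8.23 TPM. Of the other cell types, Lyz2, Tyrobp, and Fcer1g led the immune markers with 35.9, 26.0, and 20.2 TPM in 14, 6, and 28 cells. Postn, Dcn, and Acta2 led the fibroblast and pericyte markers with 0.574, 0.502, and 0.418 TPM, and Pecam1 and Emcn were the only endothelial markers found, in 2 cells and 1.

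The second question was whether cells with these genes had less of the melanocyte program. Within each tumor, log2(TPM + 1) of every gene was regressed on the log10 of the number of genes detected, and the mean of the residuals in cells without the gene was subtracted from that in cells with it. For Vim, cells above the median of the tumor were set against the others. The 6 differences, 1 per tumor, were tested against 0 with limma over 11263 genes. Vim, Cdh2, Snai2, Zeb2, and Fn1 had at least 5 cells on each side in every tumor. Axl, Sox9, and Cdh1 did not and were not fitted.

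No gene passed an adjusted p of 0.05 in any of these 5 fits with limma, which is 0% of all genes in each. At an unadjusted p under 0.05, 380 genes were higher and 432 lower in cells high in Vim, 399 and 340 in cells with Cdh2, 370 and 343 with Snai2, 367 and 370 with Zeb2, and 380 and 338 with Fn1. Simulated differences of 1 and 2 on the log2 scale were recovered for 57% and 100% of 100 genes each in a fit of this kind. Those genes were drawn from all genes tested and the cells were split at random, so these shares need not hold for a given gene.

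After regression on genes detected, the melanocyte mean was lower in cells with Fn1 in 5 of 6 tumors, but 0 of its 17 genes passed the adjusted test, and without the regression the mean difference was 0.026, with 3 of 6 tumors below 0. The mean of the 17 detected genes was lower by 0.151 in B16007, 0.110 in B16008, 0.482 in B16PD1000, 0.184 in B16PD1002, and 0.351 in R499015, and higher by 0.0737 in R499016. The mean difference was -0.20 ± 0.19 (SD, n = 6 tumors). Of the 17 genes, 14 had a negative mean difference, beside 5764 of all 11263 genes, and their median was -0.21 against -0.0040. Here and below, the 17 genes are measured in the same cells and are not independent. The set of all genes was not matched to them in level. At an unadjusted p under 0.05, 3 of the 17 were lower and 0 higher, while 3% and 3.37% of all genes were.

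These 3 genes were Trpm1, Mlana, and Mitf. Trpm1, a melanocyte cation channel gene driven by MITF, was lower in cells with Fn1 in all 6 tumors, by 0.96 in B16007, 0.48 in B16008, 1.33 in B16PD1000, 1.12 in B16PD1002, 1.0 in R499015, and 0.63 in R499016. The mean difference was -0.92 (SE 0.18, limma adjusted p = 0.184). Mlana, which encodes the melanosome protein MART-1, was lower in 5 of 6 tumors (-0.28, SE 0.09, limma adjusted p = 0.698), and so was Mitf, the master factor of the lineage (-0.54, SE 0.21, limma adjusted p = 0.739). Sox10 and Pax3, the factors upstream of Mitf, had differences of 0.29 and 0.24. The pigment enzymes Tyrp1 and Dct were at -0.023 and -0.0071.

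Cells high in Vim had a like melanocyte mean difference, and Mlana and Trpm1 were again among the genes lower at an unadjusted p under 0.05. The melanocyte mean in cells above the tumor median of Vim, after regression, was lower by 0.385 in B16007, 0.214 in B16PD1000, 0.433 in B16PD1002, 0.0775 in R499015, and 0.192 in R499016, and higher by 0.0796 in B16008, with a mean of -0.20 ± 0.19 (SD, n = 6 tumors). Of the 17 genes 13 had a negative mean difference, beside 5502 of all 11263, and 3 were lower and 0 higher at an unadjusted p under 0.05, where 3.84% and 3.37% of all genes were. Mlana was lower in all 6 tumors, by between 0.42 and 0.66, with a mean difference of -0.53 (SE 0.10, limma adjusted p = 0.109). Among the 6167 genes found in at least 20% of retained cells, Mlana also had the most negative mean correlation with Vim between cells, -0.24 (range over 6 tumors -0.33 to -0.087). Oca2, the melanosome transporter gene, was lower in all 6 tumors (-0.74, SE 0.23, limma adjusted p = 0.449), and Trpm1 in 5 of 6 (-0.50, SE 0.20, limma adjusted p = 0.595).

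Cdh2, Snai2, and Zeb2 did not go with a lower melanocyte mean in this way. For Cdh2 the mean difference after regression was -0.040 ± 0.24 (SD, n = 6 tumors), with 4 tumors below 0 and 2 above. For Snai2 it was -0.063 ± 0.13, also with 4 below and 2 above. For Zeb2 it was 0.056 ± 0.084, with 1 below and 5 above. Of the 17 melanocyte genes, 10, 11, and 6 had a negative mean difference for the 3 genes, beside 5275, 5670, and 5343 of all 11263. Those lower at an unadjusted p under 0.05 were Gpr143 and Tyr with Cdh2 and Mlana with Zeb2, and 0 were higher, while 3.02% and 3.29% of all genes were lower and 3.54% and 3.26% higher. With Snai2 there were 0 in either direction, while 3.05% of all genes were lower and 3.29% higher.

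Without the regression Vim still had the lowest and Zeb2 the highest value, but Fn1, Cdh2, and Snai2 changed sign. Cells with Fn1 then differed in the melanocyte mean by 0.026, cells with Cdh2 by 0.23, with Snai2 by 0.24, and with Zeb2 by 0.37, and only cells high in Vim were lower, by 0.23. Cells with Zeb2 were then higher in all 6 tumors, as were cells with Snai2. In B16PD1002 cells with Zeb2 had a median of 4483.5 genes detected and cells without it 2703.5, in B16007 3924.5 and 2914, and in R499015 3365 and 2961. Cells above the median of Vim had a lower median of genes detected than the others in 4 of 6 tumors, such as 3453 against 4152 in B16PD1000, and a higher one in B16007 and R499015.

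**Figure D4:**
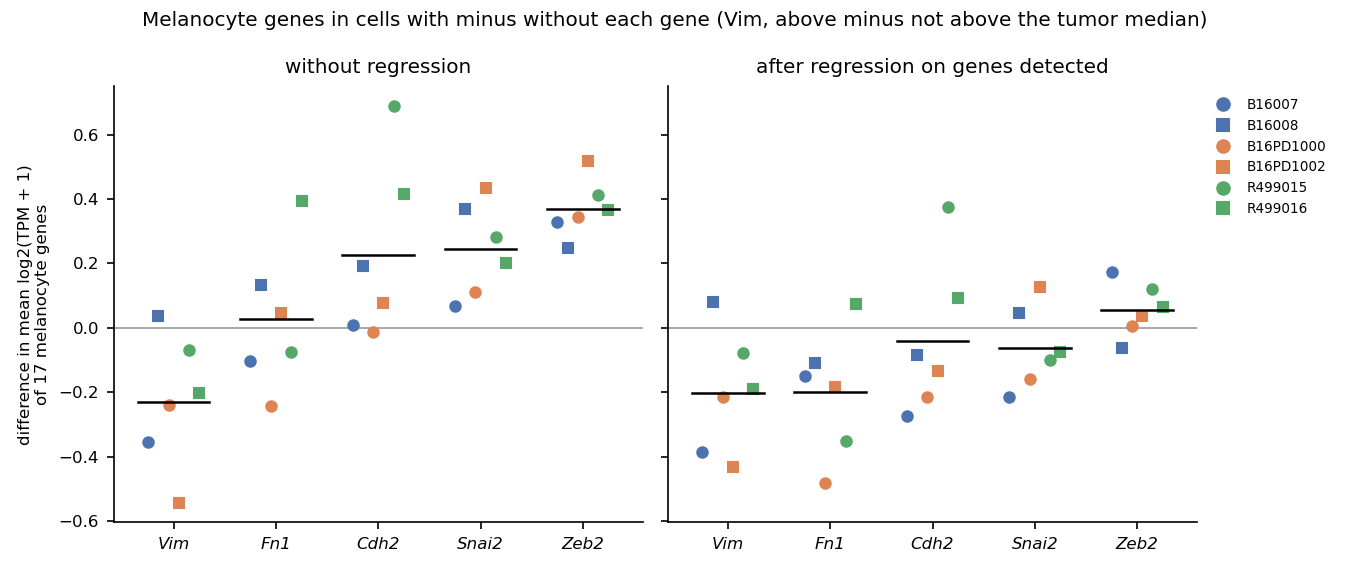
Difference in the mean log2(TPM + 1) of 17 melanocyte genes (y axis) between cells with and without Vim, Fn1, Cdh2, Snai2, or Zeb2 (x axis), without regression (left) and after regression on genes detected (right), 1 point per tumor, with the mean of 6 tumors as a line. After regression the means were -0.20 for Vim and Fn1, -0.040 for Cdh2, -0.063 for Snai2, and 0.056 for Zeb2.

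For Axl, 3 tumors had at least 5 cells with the gene, and the adjusted differences of the melanocyte mean were -0.0053 in B16007 (22 cells), 0.030 in B16PD1002 (8 cells), and 0.048 in R499015 (10 cells). For Sox9 they were -0.19 in B16PD1000 (9 cells), 0.13 in B16PD1002 (10 cells), 0.11 in R499015 (7 cells), and 0.12 in R499016 (5 cells). Cells with Axl thus differed from the other cells by less than 0.05 in each of these 3 tumors, which is a description with no test.

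**Figure D5:**
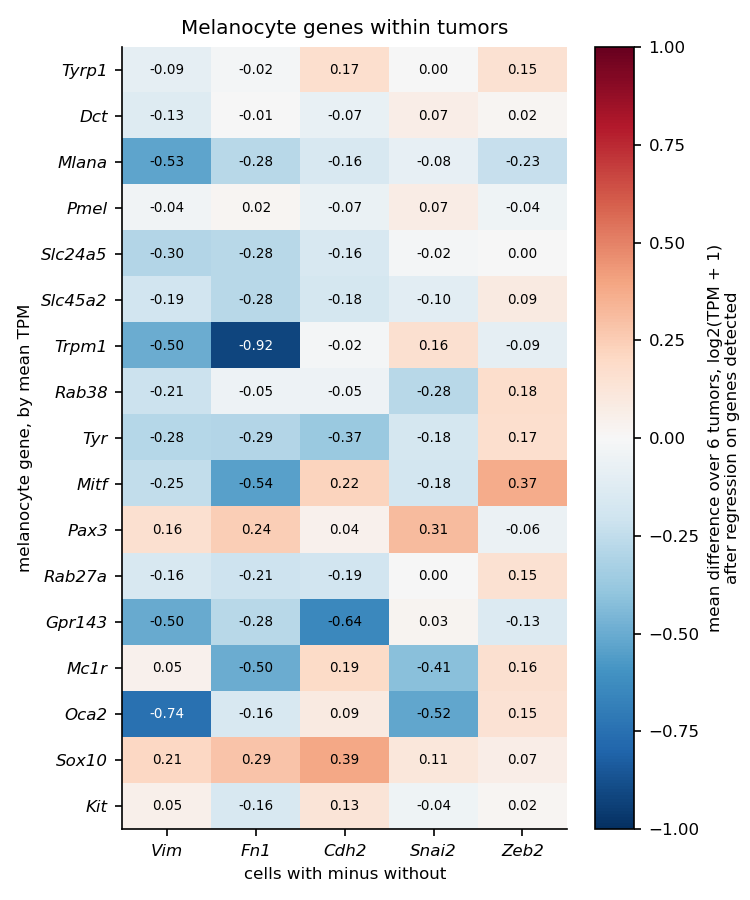
Mean difference over 6 tumors of log2(TPM + 1) after regression on genes detected (color and printed value) for 17 melanocyte genes (rows, by mean TPM) between cells with and without Vim (above against not above the tumor median), Fn1, Cdh2, Snai2, and Zeb2 (columns). Trpm1 with Fn1 at -0.92 and Oca2 with Vim at -0.74 had the most negative values, and none of them passed the adjusted test.

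The 10 genes were also compared with each other between the cells of a tumor, as Pearson's r of the residuals, which is a description over cells that share libraries and depth. Of the 28 pairs of the 8 detected genes, Vim and Fn1 had the highest mean, 0.16 (range over 6 tumors 0.11 to 0.21), followed by Snai2 and Fn1 at 0.11 (0.026 to 0.20). Both pairs were positive in all 6 tumors. In the fits, Vim was higher in cells with Fn1 in 6 of 6 tumors, by 0.40 (SE 0.13, limma adjusted p = 0.670), and Snai2 by 0.41 (SE 0.16, limma adjusted p = 0.739). Zeb2 and Fn1 had a mean of -0.069 (-0.28 to 0.10), and Fn1 was lower in cells with Zeb2 in 5 of 6 tumors (-0.52, SE 0.21, limma adjusted p = 0.708). All other pairs had a mean between -0.066 and 0.081, and those with Axl were -0.066 for Cdh2, -0.035 for Snai2, -0.043 for Zeb2, 0.053 for Fn1, and 0.077 for Sox9.

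The genes most like each of the 4 genes in at least 20% of cells, by the mean over 6 tumors of the same r, were Actg1 (0.31), Nedd4 (0.27), and Rps2 (0.26) for Vim, the first of which encodes cytoplasmic γ-actin. For Fn1 they were Plekho1 (0.28), Nppb (0.22), and Gpnmb (0.21), the last a melanosome glycoprotein gene. For Zeb2 they were Scd2 (0.28), a fatty acid desaturase gene, Slc38a2 (0.23), an amino acid transporter gene, and the ubiquitin gene Ubb (0.20). For Cdh2 they were Nepro (0.20), Lactb2 (0.20), and Actg1 (0.19). The least like Fn1 was Trpm1, at -0.17 (-0.27 to -0.098).

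In GENCODE M21 on GRCm38, the mm10 build of the submitters' processing notes, Vim (ENSMUSG00000026728) lies on chromosome 2 from 13573927 to 13582826, Zeb2 (ENSMUSG00000026872) on chromosome 2 from 44983632 to 45117395, Fn1 (ENSMUSG00000026193) on chromosome 1 from 71585520 to 71653200, and Snai2 (ENSMUSG00000022676) on chromosome 16 from 14705852 to 14709385. Axl (ENSMUSG00000002602) lies on chromosome 7 from 25757273 to 25788705, Cdh1 (ENSMUSG00000000303) on chromosome 8 from 106603351 to 106670246, and Cdh2 (ENSMUSG00000024304) on chromosome 18. Twist1 (ENSMUSG00000035799) lies on chromosome 12 from 33957671 to 33959829, and Ngfr (ENSMUSG00000000120) and Sox9 (ENSMUSG00000000567) both on chromosome 11, from 95568818 to 95587735 and from 112782224 to 112787760.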

How the data were processed

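Single-cell RNA sequencing of 6 tumors in 3 conditions was analysed. Per the labels and methods, the authors ran STAR in 2-pass mode and then RSEM with default settings. They deposited unfiltered TPM for 25215 genes and 602 cells. The submitters' processing notes also list GATK and mm10, and versions and annotation are not given in the sources used here. The default of RSEM does not use strand. TPM holds no read counts, so the read minimum of the study, which retained fewer cells, was not applied. Columns name the condition and tumor but no replicate number of the labels. No column was left unmapped. Doublets were not called.

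A cell was retained if over 1000 genes had a value above 0 and the 37 mitochondrial genes made up under 10% of its TPM (507 cells). A gene was tested if over 5 retained cells had it (11264 genes). The value of a tumor was the mean of log2(TPM + 1) over its cells. Conditions were fitted with limma 3.58.1 in R 4.3.3 (F test and 2 contrasts, eBayes with trend, two-sided, Benjamini-Hochberg over all genes, threshold 0.05). The study's tests on cells were not used, because cells of a tumor are not replicates. Cells with and without a gene were compared as described with the results, with the trend taken over each gene's mean expression. The tumors of a condition came from separate mice, so p-values between conditions rest on the spread between mice, which includes the sampling of cells. In the fits between cells, the spread over tumors also mixes line and treatment with mouse and the sampling of few cells. In both kinds of fit, eBayes draws the variance of a gene toward a trend over all genes. The p-values therefore do not measure the spread between mice of a single gene alone. Shares have 95% Wilson intervals. Other steps ran in Python 3.11.15 (pandas 2.3.3, numpy 2.4.6, matplotlib 3.10.9, scipy 1.17.1), and the fits were tested on simulated data.

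The genes and lists were chosen with earlier results of these data known. Named are the 10 genes, the 3 most abundant genes of each list and any past a threshold, and for genes in at least 20% of cells the 3 most like genes. Melanocyte genes and others outside this rule were named after their values were seen. Alternatives were pseudocounts of 0.1 and 10, log2 of the mean TPM over a tumor, the share of cells, other filters on genes and cells, centring of cells, no regression on genes detected, at least 10 cells on each side, removal of cells with markers of other types, and leaving out each tumor. Ccn1 and Ccn2 of the undifferentiated list are in the table as Cyr61 and Ctgf.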

Additional observations from a re-analysis of the deposited data

Results flagged for a closer look

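The difference in the melanocyte mean between cells with and without Cdh2, after regression on genes detected, had opposite signs in the conditions. It was negative in both B16 tumors (-0.27 in B16007 and -0.083 in B16008, mean -0.179), negative in both B16PD1 tumors (-0.22 in B16PD1000 and -0.13 in B16PD1002, mean -0.175), and positive in both R499 tumors (0.38 in R499015 and 0.094 in R499016, mean 0.235). What drew attention was that every tumor of B16 and of B16PD1 went one way and every tumor of R499 the other. This split of signs was seen only after the regression. Without it the mean difference over the 6 tumors was 0.23, with 1 tumor below 0. The difference between conditions was not tested, and with 2 tumors against 2 a two-sided exact test gives no p under 0.333. The pattern was picked out after the values of the 5 genes were seen, and no share over all genes is given beside it. The values of R499015 rest on 12 cells with Cdh2, with a median of 4187 genes detected against 3058 in the 69 cells without it. For the 5 genes compared in this way, no tumor stood apart from the other 5 by Dixon's criterion, which chance meets in about 1 in 20 groups.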

How the results depend on the processing

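No paired analysis was possible because the tumors of different conditions came from separate mice and the columns of the table carry no replicate numbers. None of the 8 genes passed an adjusted p of 0.05 between conditions under any alternative that was run, and the adjusted p of Zeb2 in R499 minus B16 ranged from 0.260 to 0.747, with a difference from -0.75 without B16007 to -1.58 without B16008 when 1 tumor was left out, and -0.59 as log2 of the mean TPM plus 1. Over all genes, 10 passed the test over the 3 conditions and 7 R499 minus B16, and these counts ranged from 0 to 25 and from 0 to 28 over the alternatives.

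Small differences changed sign, and the cause was not tested. As shares of cells, B16PD1 minus B16 was 0.581 percentage points for Vim and 3.56 for Cdh2, and R499 minus B16 was 0.249 for Fn1. As log2 of the mean TPM plus 1, Vim was -0.054 and Fn1 0.089 in R499 minus B16, and Cdh1 was 0.037 and Fn1 0.035 in B16PD1 minus B16. R499 minus B16 was -0.0044 for Vim in cells with more than 2000 genes, and for Fn1 0.021 without a filter on cells, 0.030 with cells centred, and 0.029 without cells holding markers of other types. B16PD1 minus B16 was 0.086 for Cdh2 with a pseudocount of 0.1, and without cells holding such markers 0.089 for Cdh2 and 0.024 for Fn1. When each tumor was left out in turn, B16PD1 minus B16 ranged from -0.34 to 0.094 for Vim, -0.047 to 0.028 for Cdh1, -0.42 to 0.40 for Cdh2, -0.40 to 0.24 for Fn1, and -0.91 to 0.050 for Axl, and R499 minus B16 from -0.12 to 0.32 for Vim, -0.70 to 0.12 for Cdh2, -0.39 to 0.24 for Fn1, and -0.82 to 0.14 for Axl.

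In the fits between cells, which called 0 genes, leaving out the regression on genes detected gave 569 calls for Cdh2, 1054 for Snai2, 1536 for Zeb2, and 272 for Fn1, and S100b in cells with Zeb2 then changed sign to 0.10. With genes in at least 10% of cells only, 1 gene was called for Vim (Mlana), 5 for Zeb2, and 3 for Fn1. A pseudocount of 0.1 gave 2 calls for Zeb2, and cells with more than 2000 genes gave 1 for Cdh2 (Ubb). Leaving out 1 tumor gave 0 to 1 calls for Vim and for Cdh2. Of 894 values under alternatives, 833 kept their direction and their side of the threshold. Depth in reads is unknown, so for genes in few cells a 0 cannot be told from a missed transcript.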

Other observations

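Genes outside the lists that led the fits between cells were looked up after their values were seen. In cells with Fn1, Lgals3, the gene of the galactoside-binding lectin galectin-3, was higher in all 6 tumors, by 0.70 in R499016 to 2.45 in R499015, with a mean of 1.26 (SE 0.21, limma adjusted p = 0.0690). Plekho1 (1.28, adjusted p = 0.184), the natriuretic peptide gene Nppb (1.28, adjusted p = 0.184), and S100a11 (1.2, adjusted p = 0.325) were also higher in 6 of 6 tumors. When only genes in at least 10% of cells were tested, Lgals3 (limma adjusted p = 0.0137), Plekho1 (0.0212), and Nppb (0.0498) passed. Hmox1, the heme oxygenase gene, was higher in cells with Fn1 (0.95) and lower in cells with Zeb2 (-0.95), in 6 of 6 tumors each, with limma adjusted p of 0.526 and 0.539.

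In cells with Zeb2, the ribosomal pseudogene Rps23-ps1 (-0.95) and the ATPase inhibitor gene Atpif1 (-0.79) were lower in 6 of 6 tumors, both with a limma adjusted p of 0.0828. Ubb was higher in 6 of 6 tumors (0.41, SE 0.08, limma adjusted p = 0.0878), and the ribosomal protein genes Rpl10 (-0.65), Rps28 (-0.91), and Rps15 (-0.63), with adjusted p of 0.0878, 0.106, and 0.359, were lower in 6 of 6. When only genes in at least 10% of cells were tested, Ubb (limma adjusted p = 0.00337), Rps28 and Rps23-ps1 (0.00522 each), Atpif1 (0.0139), and Rpl10 (0.0170) passed. In cells with Snai2, the stress response factor gene Atf3 (1.17) and Ndrg1 (1.15) were higher in 6 of 6 tumors, both with a limma adjusted p of 0.676.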
